A study of Mus musculus with 6 samples.

Results

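The 30 genes described here encode the machinery of autophagy and of the lysosome, the compartment in which autophagy ends. They were chosen by symbol from a fixed list of names, and all 30 were found among the 23203 named genes of the count table. Bulk RNA was sequenced from endothelial cells of the spleen, 1 library for each of 6 Apoe-knockout mice, after 8 weeks of treatment on a high cholesterol diet. Mice 1603, 1604 and 1607 had been given an antisense oligonucleotide (ASO) against Mlkl, which is labelled as Mlkl knockdown. Mice 1601, 1602 and 1608 had been given a control ASO. All 6 mice lacked Apoe, which encodes the apolipoprotein that clears remnant lipoproteins, and all 6 received the diet and an ASO, so neither an untreated nor an Apoe-competent group stands beside them. The age and sex of the mice, the sequence and dose of the ASOs and the way the endothelial cells were isolated are not stated in the labels. The series title places the question in splenic hematopoiesis in atherosclerosis, and in the part that MLKL has in it.

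In autophagy, a kinase complex around Ulk1 and a lipid kinase complex around Becn1 start a membrane cup that grows, with the help of Atg9a vesicles, around material to be degraded. A conjugation system related to ubiquitination then couples small proteins of the Atg8 family (Map1lc3 and Gabarap) to that membrane, and receptors such as Sqstm1 hold the material to them. The closed vesicle fuses with a lysosome, an acid compartment kept up by a proton pump and filled with cathepsins and glycosidases, whose genes are switched on by Tfeb and Tfe3. Endothelial cells depend on this route to handle lipoproteins and to endure flow. MLKL, a pseudokinase best known as the executioner of necroptosis, also has a described role in traffic through endosomes and lysosomes.

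Library totals lay between 59988846 and 87776706 estimated counts. Levels are given as CPM, the share of a library's TMM-scaled counts that a gene takes, and compare mice within a gene, not genes with each other. SE is the standard error of a log2 fold change. Mlkl measured 7.52, 5.80 and 3.73 CPM in MLKL ASO mice 1603, 1604 and 1607, against 30.1, 31.5 and 38.7 CPM in control ASO mice 1601, 1602 and 1608, so the target was lower in each mouse labelled as knocked down (edgeR adjusted p = 0.0666, against an adjusted p of 2.84e-15 in the authors' deposited table). All 12 endothelial markers listed were present in each library, with a summed level of 4083 to 5454 CPM in MLKL ASO mice and 5037 to 8915 CPM in control ASO mice. Plvap was the highest of them in each library, at 1150 to 2451 CPM in MLKL ASO mice and 2674 to 4546 CPM in control ASO mice, and weighs heavily in this sum. Of the 12, 3 had log2 fold changes above 0 and 9 below. Markers of other cells were present as well. The 10 erythroid markers summed to 40116 to 91132 CPM in MLKL ASO mice and 26664 to 74608 CPM in control ASO mice. Most of this came from the globin genes Hba-a1 (11724 to 39087 CPM) and Hbb-bs (14324 to 49891 CPM). The next highest, Alas2, reached 626.4 CPM at most. These sums compare mice and do not rank cell types. The 16 macrophage markers summed to 1488 to 1793 CPM in MLKL ASO mice and 970.3 to 2977 CPM in control ASO mice, and the 9 T and NK cell markers to 101 to 133 CPM in MLKL ASO mice and 173 to 443 CPM in control ASO mice. All 9 T and NK cell, all 8 B cell and 7 of 8 dendritic cell markers had log2 fold changes below 0, and all 10 erythroid, all 8 megakaryocyte, all 10 neutrophil and all 8 cell cycle markers above 0. The cell cycle sum was 595 to 876 CPM in MLKL ASO mice and 265 to 557 CPM in control ASO mice. The part of these differences in the results that follow was not tested. In such mixed RNA, fewer cells of a type and less RNA per cell cannot be told apart. Control mouse 1608 had the highest endothelial sum (8915 CPM) and the lowest sums of macrophage, erythroid and megakaryocyte markers (970.3, 26664 and 102 CPM). Control mouse 1601 stood apart as well. It had the highest sums of macrophage, dendritic cell, B cell, T and NK cell and reticular fibroblast markers (2977, 631, 2380, 443 and 355 CPM). Many values that rest on mouse 1608 are therefore given with and without it, and some also without mouse 1601.

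None of the 30 genes passed the test. In edgeR's quasi-likelihood fit over 19741 genes, 0 of 30 had an adjusted p under 0.05, against 0.00507% of all genes called higher and 0.00507% called lower, and the smallest adjusted p among them was 0.274 (Uvrag). By an unadjusted p under 0.05, 5 of 30 lay lower in MLKL ASO mice (16.7%, against 7.13% of all genes) and 0 of 30 higher (against 4.86%). The 5 were Uvrag, Atg13, Atg3, Tfeb and Tfe3. In 6 of 30 genes every MLKL ASO mouse lay below every control ASO mouse (20%, against 10.0% of all genes), and in 3 of 30 above (10%, against 8.73%). The median log2 fold change over the 30, MLKL ASO over control ASO, was -0.096, against -0.016 over all genes. The count of 5 changed on leaving out 1 mouse: it was 2 without mouse 1601, 1603 or 1604, 1 without mouse 1607, 5 without mouse 1602 and 4 without mouse 1608. The count over all genes changed too, from 1407 of 19741 with all mice. It was 1421 of 20416 without mouse 1601, 1303 of 20423 without 1602 and 928 of 20790 without 1603. Without 1604 it was 927 of 20744, without 1607 861 of 20312 and without 1608 1805 of 20838. DESeq2 called 1 of 30 (Uvrag, lower), or 3.33%, against 2.61% of all genes, and the authors' deposited table called 0 of 30, against 1.82% of its named genes.

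Among the genes of initiation, Uvrag separated the groups most clearly. It encodes a Beclin 1 partner in the lipid kinase complex that acts in autophagosome maturation and in endosome traffic, and lies at chr7:98886742-99141167 (GRCm38.p6). Uvrag measured 38.6, 33.8 and 27.1 CPM in MLKL ASO mice 1603, 1604 and 1607, against 53.7, 55.1 and 50.3 CPM in control ASO mice 1601, 1602 and 1608. The groups did not overlap, and the highest MLKL ASO mouse lay well below the lowest control ASO mouse. Its log2 fold change was -0.68 ± 0.15 (SE, edgeR unadjusted p = 0.00268, adjusted p = 0.274). Leaving out each mouse gave -0.80 to -0.55, with -0.72 without mouse 1608 and -0.66 without mouse 1601. DESeq2 put it past the threshold (adjusted p = 0.0186), while the authors' deposited table did not (log2 fold change -0.70, adjusted p = 0.0668). With 3 mice against 3, an exact two-sided permutation test cannot go below p = 0.1, the value of every gene whose groups do not overlap.

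The scaffolds of the Ulk1 complex lay lower in MLKL ASO mice by smaller amounts, while the kinase itself did not. Atg13, the regulatory scaffold that links Ulk1 to nutrient signals, measured 31.9, 34.2 and 29.1 CPM in MLKL ASO mice and 39.8, 38.2 and 42.4 CPM in control ASO mice. This is a log2 fold change of -0.34 ± 0.12 (SE, edgeR adjusted p = 0.368), without overlap. Rb1cc1 (FIP200), the large scaffold of the complex, measured 53.8, 55.1 and 44.6 CPM in MLKL ASO mice and 57.2, 76.8 and 56.2 CPM in control ASO mice, also without overlap, although only a narrow gap lay between MLKL ASO mouse 1604 and control mouse 1608. Its log2 fold change of -0.31 (edgeR adjusted p = 0.503) was -0.15 without control mouse 1602. Ulk1, the starting kinase, measured 11.7 ± 1.80 CPM in MLKL ASO mice and 11.6 ± 1.28 CPM in control ASO mice (SD, n = 3 each), with overlapping mice and a log2 fold change of 0.011 whose standard error was 0.18.

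The other initiation genes held a steady Becn1 beside a scattered Atg9a. Becn1, the core subunit of the lipid kinase complex that Uvrag joins, measured 209.1, 216.7 and 227.2 CPM in MLKL ASO mice and 208.7, 208.3 and 194.8 CPM in control ASO mice. These groups did not overlap either, with MLKL ASO above, but by less than 1 CPM between the nearest mice (edgeR adjusted p = 0.750). Atg9a, the lipid scramblase of the vesicles that seed the autophagosome, measured 7.05, 13.6 and 6.65 CPM in MLKL ASO mice and 16.9, 6.20 and 22.2 CPM in control ASO mice. Its control mice spanned a 3.59-fold range that enclosed all MLKL ASO mice, and its log2 fold change of -0.73 carried a standard error of 0.48. It was -0.35 without control mouse 1608, -1.10 without control mouse 1602, -1.14 without MLKL ASO mouse 1604 and -0.012 in limma-voom with sample weights. Wipi1, which reads the lipid made by that kinase, measured 44.8 ± 5.90 CPM in MLKL ASO mice and 38.2 ± 3.46 CPM in control ASO mice (SD, n = 3 each), with overlap.

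Of 5 genes of the conjugation machinery, 4 had a log2 fold change below 0 and 1 above, with a median of -0.21, and 0 passed the test. Atg3, the E2-like enzyme that hands Atg8 proteins to the lipid, measured 86.3, 78.4 and 56.0 CPM in MLKL ASO mice 1603, 1604 and 1607, against 94.2, 121 and 90.5 CPM in control ASO mice 1601, 1602 and 1608. Every MLKL ASO mouse lay below every control ASO mouse, most of all mouse 1607. The log2 fold change was -0.47 ± 0.19 (SE, edgeR unadjusted p = 0.0444, adjusted p = 0.405), and it was -0.30 without mouse 1607. Atg7, the E1-like enzyme that activates both Atg12 and the Atg8 proteins, measured 29.1, 25.9 and 24.2 CPM in MLKL ASO mice and 32.9, 29.9 and 30.3 CPM in control ASO mice, and Atg5, which Atg12 is joined to, 35.3, 37.5 and 40.2 CPM in MLKL ASO mice and 41.5, 42.9 and 41.0 CPM in control ASO mice. Neither gene overlapped between the groups, yet the gaps were under 2 CPM and the adjusted p were 0.516 and 0.638 in edgeR. Atg12 ran the other way, with 65.3, 68.6 and 65.9 CPM in MLKL ASO mice and 56.2, 58.9 and 62.7 CPM in control ASO mice (log2 fold change 0.17, edgeR adjusted p = 0.566), again without overlap. Atg16l1, which places the Atg12 and Atg5 conjugate on the membrane, measured 30.1 ± 4.83 CPM in MLKL ASO mice and 34.8 ± 5.05 CPM in control ASO mice (SD, n = 3 each) and overlapped, with a log2 fold change of -0.21 that was -0.10 without mouse 1608 and -0.085 without mouse 1603.

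**Figure D1:**
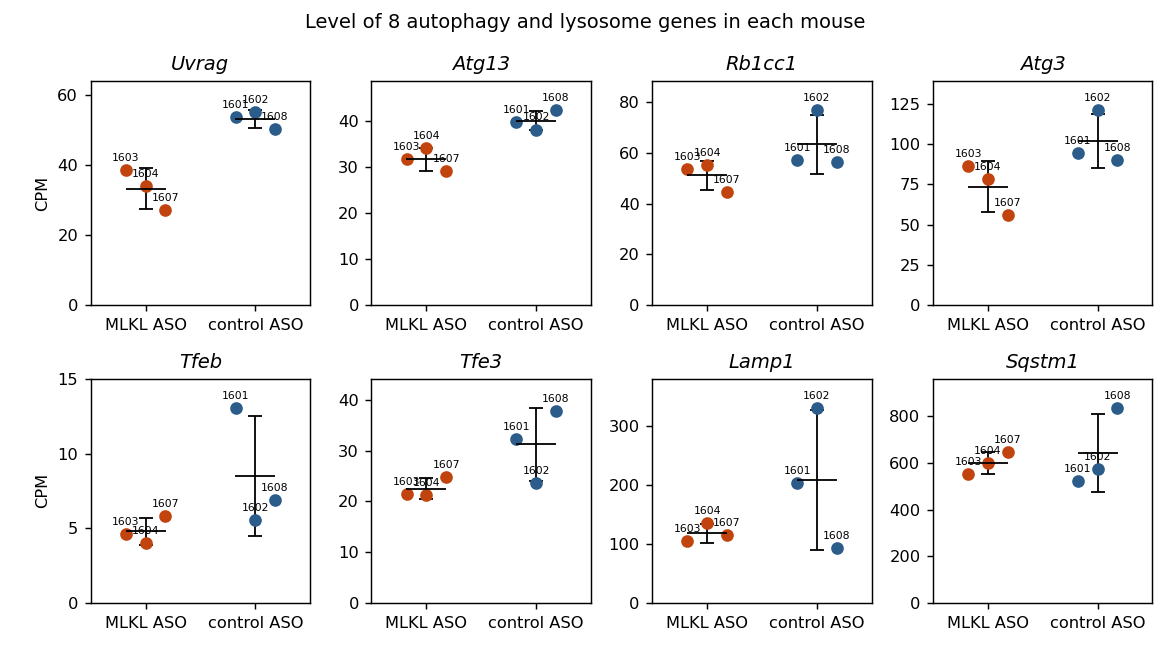
Level in CPM (vertical axes, from 0) of 8 of the 30 genes in each MLKL ASO mouse (left, red-orange) and each control ASO mouse (right, blue), with mouse numbers, the mean (bar) and the SD over 3 mice (whiskers). Uvrag, Atg13, Rb1cc1 and Atg3 do not overlap between the groups, while the highest control mouse lies far above the other controls for Tfeb (1601) and Sqstm1 (1608), and all 3 control mice lie far apart for Lamp1.

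The Atg8 genes and the receptor gene Sqstm1 differed little between the groups. All 6 had a log2 fold change within 0.25 of 0, with 2 above and 4 below, a median of -0.06 and 0 past the test, and in all 6 the groups overlapped. Map1lc3b, the LC3 form most often followed as an autophagy marker, measured 629, 653 and 677 CPM in MLKL ASO mice and 602, 642 and 634 CPM in control ASO mice. Its log2 fold change of 0.062 had a standard error of 0.097. Sqstm1 (p62), which binds ubiquitinated cargo and is itself degraded by autophagy, measured 550.1, 598 and 645 CPM in MLKL ASO mice and 523, 573 and 835 CPM in control ASO mice. Its control mice were spread by mouse 1608, and its log2 fold change was -0.11 with that mouse and 0.12 without it. RNA levels say nothing of how fast these proteins are used up. Map1lc3a, Gabarap, Gabarapl1 and Gabarapl2 had log2 fold changes of -0.14, -0.012, -0.19 and 0.026, with edgeR adjusted p from 0.746 to 0.982. Without mouse 1608, all 6 lay above 0 on the log2 scale and their median was 0.059.

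Set against transcript length, Map1lc3b and Gabarap were the Atg8 genes of highest level. CPM was divided by the mean length in kilobases of the protein-coding transcripts in GENCODE M21, an annotation that need not be the one used for counting. Map1lc3b reached 390.0 ± 14.2 CPM per kb in MLKL ASO mice and 373 ± 12.7 in control ASO mice (SD, n = 3 each), and Gabarap 236 ± 7.10 in MLKL ASO mice and 238 ± 21.9 in control ASO mice. In MLKL ASO mice, Gabarapl1 (99.7), Gabarapl2 (80.9) and Map1lc3a (40.8 CPM per kb) followed, and in control ASO mice the values were 114 for Gabarapl1, 79.4 for Gabarapl2 and 45.1 CPM per kb for Map1lc3a. The order depends on which transcript is made: for control ASO mice, the longest and the shortest transcript give 238 and 817 CPM per kb for Map1lc3b, 185 and 333 for Gabarap, and 68.1 and 230 for Gabarapl1. Neighbours in that order whose ranges meet are not separated.

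Both lysosomal transcription factors had log2 fold changes well below 0, with overlapping groups. Tfeb, the main activator of lysosomal and autophagy genes, measured 4.60, 3.99 and 5.81 CPM in MLKL ASO mice 1603, 1604 and 1607, against 13.1, 5.58 and 6.91 CPM in control ASO mice 1601, 1602 and 1608. Mouse 1601 was the highest, and MLKL ASO mouse 1607 lay above control mouse 1602. The log2 fold change of -0.83 (standard error 0.35, edgeR unadjusted p = 0.0484, adjusted p = 0.414) was -0.37 without mouse 1601 (unadjusted p = 0.181). Mouse 1601 also had the highest summed level of the 16 macrophage markers (2977 CPM) and of the 8 B cell markers (2380 CPM), none of which stood at 0 in any mouse, and their part in the Tfeb values was not tested. Tfe3, a close relative of Tfeb, measured 21.4, 21.3 and 24.8 CPM in MLKL ASO mice and 32.3, 23.6 and 37.9 CPM in control ASO mice. Here control mouse 1602 lay among the MLKL ASO mice, and the log2 fold change was -0.47 ± 0.19 (SE, edgeR unadjusted p = 0.0406, adjusted p = 0.400). Without mouse 1608, its highest value, the log2 fold change of Tfe3 was -0.32 and its unadjusted p in edgeR was not under 0.05.

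Tfeb and Tfe3 bind an E-box with the core CACGTG, which reads alike on both strands, and stretches that hold it are shown because this element is what lysosomal promoters are known to share. RefSeq promoter windows (GRCm38.p6, 250 bases before to 50 after an annotated start) were at hand for 23 of the 30 genes. CACGTG occurred in 9 of these 23 (39.1%), against 8.09% of all 27025 genes with a window. It occurred in 6 of 8 genes for lysosomal membrane, pump and enzymes (Lamp1, Mcoln1, Atp6v0d1, Ctsa, Ctsd and Ctsl), in 3 of 3 for conjugation (Atg3, Atg5 and Atg7), in 0 of 5 for initiation, in 0 of 5 for Atg8 proteins and Sqstm1, and in 0 of 2 for Tfeb and Tfe3. The stretches, 5′ to 3′ on the strand of the gene with CACGTG in capitals, lie close before the outermost start of 5 genes, that of Atp6v0d1 reaching across it, and positions count from that start.
Lamp1, 69 bases at chr8:13159092-13159160, plus strand: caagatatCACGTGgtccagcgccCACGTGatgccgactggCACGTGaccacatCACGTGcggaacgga
Mcoln1, 55 bases at chr8:3500440-3500494, plus strand: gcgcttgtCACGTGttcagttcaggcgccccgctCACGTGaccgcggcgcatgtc
Ctsd, 55 bases at chr7:142387905-142387959, minus strand: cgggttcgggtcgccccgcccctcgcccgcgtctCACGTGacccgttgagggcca
Atp6v0d1, 40 bases at chr8:105566062-105566101, minus strand: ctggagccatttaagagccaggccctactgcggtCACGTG
Atg3, 55 bases at chr16:45158724-45158778, plus strand: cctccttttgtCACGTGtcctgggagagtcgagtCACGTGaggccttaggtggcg
Lamp1 holds 4 copies, at -61, -45, -28 and -15, a number reached by 6 of the 27025 genes. Mcoln1 holds copies at -71 and -45, Atg3 at -94 and -71, Ctsd at -98 and, outside the stretch shown, at -245, and Atp6v0d1 at -3. A match of letters is a description and not a site of binding. The 9 genes with CACGTG had a median log2 fold change of -0.15 (3 above 0 and 6 below), and the 14 with a window but no match one of -0.096 (4 above and 10 below).

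Lysosomal membrane and pump genes split into a scattered Lamp1 and stable pump subunits. Of the 5 genes, 2 had a log2 fold change above 0 and 3 below, and 0 passed the test. Lamp1, whose heavily glycosylated product lines the lysosomal membrane, measured 104, 136 and 115 CPM in MLKL ASO mice 1603, 1604 and 1607, against 203, 331 and 93.4 CPM in control ASO mice 1601, 1602 and 1608. The control mice alone spanned a 3.54-fold range, with the lowest (1608) below and the other two above all MLKL ASO mice. The log2 fold change was -0.82 ± 0.40 (SE, edgeR adjusted p = 0.464). It was -0.33 without mouse 1602, and -1.17 without mouse 1608 (unadjusted p = 0.00111, adjusted p = 0.114). Lamp2, the partner protein that also receives cargo in chaperone-mediated autophagy, did not share this pattern: it measured 494, 477 and 452 CPM in MLKL ASO mice and 381, 466 and 663 CPM in control ASO mice, with its highest value in mouse 1608, where Lamp1 was lowest.

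The proton pump and the calcium channel differed little between the groups. Atp6v0d1, a subunit of the membrane-bound part of the V-ATPase, measured 142, 142 and 155 CPM in MLKL ASO mice and 134, 128 and 137 CPM in control ASO mice. MLKL ASO mice lay above control ASO mice without overlap, by a log2 fold change of 0.14 (standard error 0.10, edgeR adjusted p = 0.634). Atp6v1h, a subunit of its cytosolic part, measured 96.8 ± 1.96 CPM in MLKL ASO mice and 92.4 ± 9.08 CPM in control ASO mice (SD, n = 3 each), with overlap. Mcoln1, the calcium channel that signals from a starved lysosome to Tfeb, measured 66.3, 62.9 and 62.4 CPM in MLKL ASO mice and 60.8, 70.5 and 92.1 CPM in control ASO mice. Only control mouse 1608 lay far from the others, and its log2 fold change of -0.22 was -0.041 without that mouse.

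The 5 lysosomal enzymes differed little between the groups. All 5 lay within 0.25 of 0 on the log2 scale, with 2 above and 3 below, a median of -0.01, 0 past the test and overlap in each, although in limma-voom with sample weights 5 of 5 lay above 0 and the median was 0.12. Ctsb, a cysteine protease that can also cut outside the lysosome, measured 2276, 2198 and 2055 CPM in MLKL ASO mice and 2412, 1827 and 2533 CPM in control ASO mice. Ctsd, the main aspartic protease, measured 865, 900.2 and 817 CPM in MLKL ASO mice and 745, 624 and 1048 CPM in control ASO mice. In both, the MLKL ASO mice lay inside the range of the control mice. The log2 fold change of Ctsd was 0.095, and 0.33 without mouse 1608. Ctsl, a cysteine protease that matures other lysosomal enzymes, measured 217, 218 and 214 CPM in MLKL ASO mice and 145, 165 and 242 CPM in control ASO mice. Its MLKL ASO mice were nearly alike, lying above mice 1601 and 1602 and below mouse 1608. Its log2 fold change of 0.23 (edgeR adjusted p = 0.667) was 0.48 without mouse 1608 (unadjusted p = 0.00287, adjusted p = 0.146) and 0.094 without mouse 1601. Ctsa, which protects β-galactosidase and neuraminidase, and Hexa, which trims gangliosides, had log2 fold changes of -0.01 and -0.047 with standard errors of 0.11 and 0.12.

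**Figure D2:**
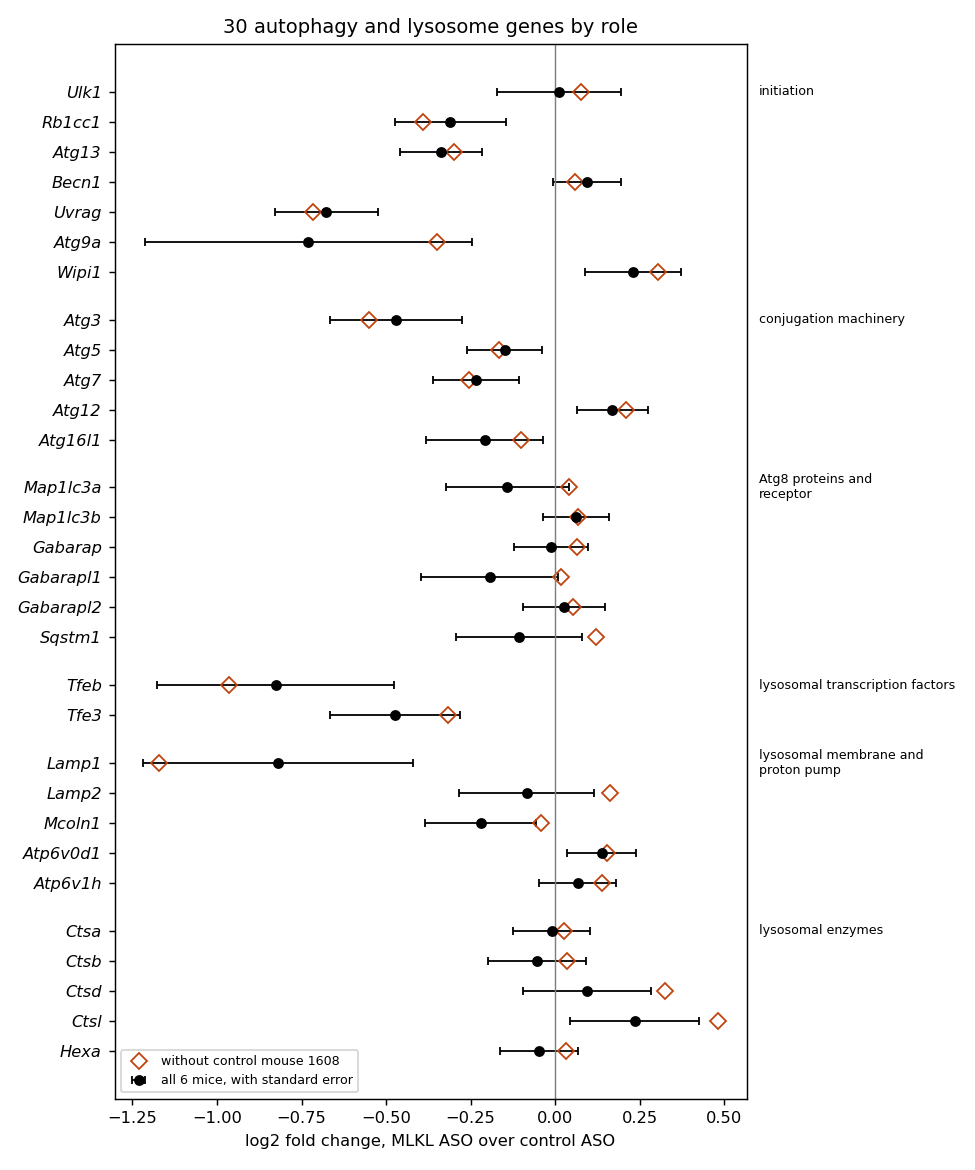
Log2 fold change of MLKL ASO over control ASO (horizontal axis) for the 30 genes in blocks by role, from edgeR with all 6 mice (black, with its standard error) and without control mouse 1608 (open diamonds). Uvrag, Atg13, Atg3, Tfeb, Tfe3 and Lamp1 lie left of 0 in both fits, while Sqstm1, Lamp2 and Ctsb cross 0 when mouse 1608 is left out.

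Per kilobase of transcript, Ctsb and Ctsd stood highest among the 5 enzymes in both groups. Ctsb reached 459 ± 23.6 CPM per kb in MLKL ASO mice and 476 ± 79.6 in control ASO mice (SD, n = 3 each), and Ctsd 425 ± 20.7 in MLKL ASO mice and 398 ± 108 in control ASO mice. In neither group did the values of Ctsb and Ctsd differ beyond their spread. In MLKL ASO mice, Ctsa (105), Hexa (77.9) and Ctsl (53.1 CPM per kb) followed, and in control ASO mice the values were 106 for Ctsa, 80.5 for Hexa and 45.2 CPM per kb for Ctsl. Ctsl cannot be placed firmly, since its longest and shortest transcripts give 29.8 and 93.3 CPM per kb in control ASO mice.

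The direction of the set as a whole turned on mouse 1608. It held the highest value of all 6 mice in 15 of the 30 genes (50%), against 23.7% of all genes tested, among them Sqstm1, Lamp2, Mcoln1, Gabarapl1, Ctsb, Ctsd, Ctsl and Hexa. With all mice, 10 genes lay above 0 and 20 below. Without mouse 1608, 18 lay above 0 and 12 below, and the median was 0.033 on the log2 scale, while 0 passed the adjusted threshold in edgeR. At an unadjusted p under 0.05 in that fit, 4 of 30 were lower (Uvrag, Atg3, Tfeb and Lamp1) and 2 of 30 higher (Ctsd and Ctsl), against 8.66% and 6.56% of all genes. The 10 lysosomal membrane, pump and enzyme genes were 4 above and 6 below 0 with all mice, and 8 above and 2 below without mouse 1608. The part that the high endothelial marker sum of that library has in these values was not tested. Within the groups, the highest mouse exceeded the lowest by a median of 1.17-fold over the 30 genes in MLKL ASO mice and 1.29-fold in control ASO mice, against 1.35-fold and 1.61-fold over all genes. These sets were not matched for level: 0 of the 30 genes stood at 0 in any mouse, against 657 of the 19741. The part of level in this spread was not tested.

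**Figure D3:**
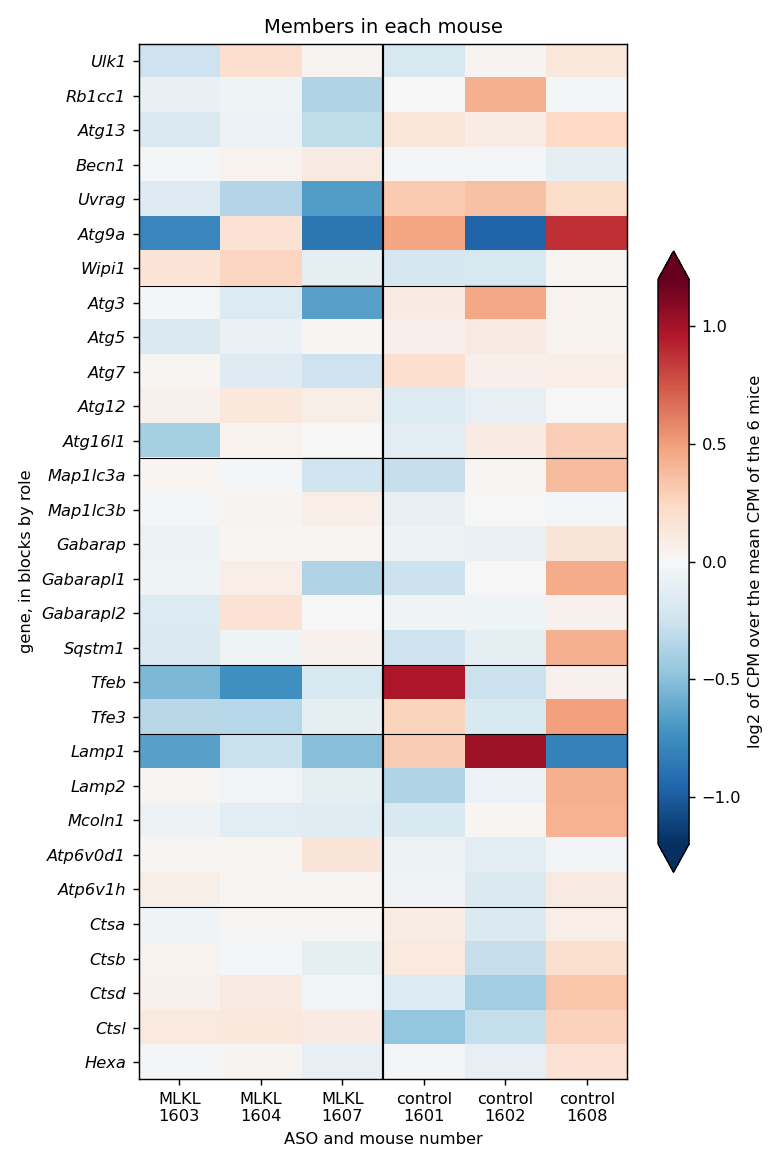
Level of the 30 genes (rows, in blocks by role) in each MLKL ASO mouse (left of the line) and each control ASO mouse (right), as the log2 of CPM over the mean CPM of the 6 mice (colour). Mouse 1608 is the reddest column for 15 genes, most of them Atg8 and lysosomal genes, while Atg9a, Tfeb and Lamp1 differ most between control mice.

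Beside the 30 genes, 113 further genes of the same pathways were followed, taken from textbook knowledge. Of these, 46 lay above 0 and 67 below, their median log2 fold change was -0.037, and 0 passed the adjusted threshold in edgeR. By the unadjusted p under 0.05, 3 were higher and 10 lower (2.65% and 8.85%, against 4.86% and 7.13% of all genes). MLKL ASO mice lay above control ASO mice without overlap in 5 of the 113 (4.42%, against 8.73% of all genes) and below in 13 (11.5%, against 10.0%). Among the 15 further initiation genes, those of smallest unadjusted p were Pik3r4, Rubcn, Pik3c3 and Ambra1. Pik3r4, the Vps15 subunit that anchors the lipid kinase complex, measured 27.4, 31.8 and 26.9 CPM in MLKL ASO mice 1603, 1604 and 1607, against 46.2, 46.5 and 37.9 CPM in control ASO mice 1601, 1602 and 1608. Rubcn, which encodes Rubicon, a brake bound to the Uvrag complex, measured 33.9, 30.4 and 38.8 CPM in MLKL ASO mice and 44.4, 43.9 and 62.5 CPM in control ASO mice. Pik3c3, the catalytic Vps34 subunit, measured 38.3, 35.3 and 35.3 CPM in MLKL ASO mice and 39.2, 46.8 and 43.8 CPM in control ASO mice. As with Uvrag, none of these 3 overlapped between the groups, with MLKL ASO mice below, while Becn1 lay marginally above. Their log2 fold changes were -0.60, -0.55 and -0.25, with edgeR adjusted p of 0.282, 0.349 and 0.457. Without mouse 1608, the value of Rubcn was -0.36. They were set beside Uvrag after their values were seen. Atg14 and Nrbf2, of the same list and also named after their values were seen, had log2 fold changes of -0.037 and 0.022, with overlap. Atg101, of the Ulk1 complex, was the further gene of this list without overlap and with MLKL ASO mice below, at 77.4 ± 5.50 CPM in MLKL ASO mice and 89.2 ± 4.56 CPM in control ASO mice (SD, n = 3 each). Tmem41b lay above without overlap, at 40.1 ± 0.289 CPM in MLKL ASO mice and 34.3 ± 4.72 CPM in control ASO mice (SD, n = 3 each). Without overlap, 4 of the 15 thus lay below (26.7%, against 10.0% of all genes) and 1 above (6.67%, against 8.73%). Over all 15 further initiation genes the median was -0.037, with 4 above 0 and 11 below (9 above and 6 below without mouse 1608), and Ambra1, which links Becn1 to Ulk1, measured 8.09 ± 0.513 CPM in MLKL ASO and 11.1 ± 2.80 CPM in control ASO mice (SD, n = 3 each), a log2 fold change of -0.45 that was -0.26 without mouse 1608.

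Of 22 further genes of conjugation, cargo binding and vesicle fusion, 13 lay above 0 and 9 below. By the unadjusted p under 0.05, 2 of 22 were higher and 2 of 22 lower (9.09% each, against 4.86% and 7.13% of all genes). Atg16l2, a relative of Atg16l1 that is not needed for canonical autophagy, measured 21.9, 17.0 and 21.7 CPM in MLKL ASO mice and 29.9, 33.1 and 31.5 CPM in control ASO mice. The groups did not overlap, at a log2 fold change of -0.64 ± 0.15 (SE, edgeR adjusted p = 0.278). The authors' deposited table called it lower (log2 fold change -0.68, adjusted p = 0.0398), the 1 of the 113 genes that it called, as did DESeq2 (adjusted p = 0.0125). DESeq2 called 3 of the 113, all lower (2.65%, against 2.61% of all genes in either direction), the others being Pik3r4 and Neu1. The T and NK cell markers lay lower in MLKL ASO mice in the same libraries (9 of 9 below 0 and none at 0 in any mouse, with the sums given above), as did B cell and dendritic cell markers, and cell cycle markers lay higher. Their part in the values of Atg16l2 and Uvrag was not tested. Atg4a, a protease that trims Atg8 proteins, measured 53.4, 59.4 and 50.3 CPM in MLKL ASO mice and 47.3, 37.0 and 35.5 CPM in control ASO mice, with MLKL ASO mice above control ASO mice (log2 fold change 0.44, edgeR adjusted p = 0.359). Epg5, a tether of autophagosomes to lysosomes, measured 9.91, 9.92 and 17.1 CPM in MLKL ASO mice and 8.60, 6.38 and 8.25 CPM in control ASO mice, again without overlap but with mouse 1607 well above the others (log2 fold change 0.67, and 0.36 without that mouse). Plekhm1, an adaptor in the same fusion step, measured 7.79, 7.14 and 10.5 CPM in MLKL ASO mice and 16.6, 10.0 and 14.5 CPM in control ASO mice and overlapped.

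The 38 further hydrolases and their cofactors had 10 genes above 0 and 28 below, with a median of -0.13 on the log2 scale. At an unadjusted p under 0.05, 1 was higher (Ctsk, a collagen-degrading cysteine protease, named after its value was seen) and 6 were lower (2.63% and 15.8%, against 4.86% and 7.13% of all genes). In 7 of the 38 the groups did not overlap, with MLKL ASO mice below (18.4%, against 10.0%), and in 1 with MLKL ASO mice above (2.63%, against 8.73%). Without mouse 1608, 11 lay above 0 and 27 below, while the count of 6 was 2 without mouse 1601, 6 without 1602, 3 without 1603 or 1604, 1 without 1607 and 7 without 1608. Over all genes the matching count was 1421 of 20416 without 1601, 1303 of 20423 without 1602 and 928 of 20790 without 1603. Without 1604 it was 927 of 20744, without 1607 861 of 20312 and without 1608 1805 of 20838. Neu1, the neuraminidase that Ctsa protects, measured 38.8, 40.0 and 40.6 CPM in MLKL ASO mice and 56.7, 49.2 and 60.5 CPM in control ASO mice. The MLKL ASO mice were nearly equal and lay below all control mice (log2 fold change -0.48, standard error 0.12, edgeR adjusted p = 0.305, DESeq2 adjusted p = 0.0415). Gaa, which breaks down glycogen in lysosomes, measured 30.2 ± 2.55 CPM in MLKL ASO mice and 45.6 ± 13.3 CPM in control ASO mice, Sgsh, which desulfates heparan sulfate, 4.65 ± 0.717 CPM in MLKL ASO mice and 7.16 ± 1.16 CPM in control ASO mice, and the acid phosphatase gene Acp2 42.9 ± 6.25 CPM in MLKL ASO mice and 57.2 ± 8.14 CPM in control ASO mice (SD, n = 3 each). Gaa and Sgsh did not overlap between the groups and Acp2 did, with edgeR adjusted p of 0.366, 0.369 and 0.390. The log2 fold change of Gaa was -0.59, and -0.33 without mouse 1608.

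Of 20 membrane and pump genes, 7 lay above 0 and 13 below, with a median of -0.063 and 0 at an unadjusted p under 0.05 in edgeR. Atp6v1c1, a regulatory pump subunit, measured 135, 126 and 136 CPM in MLKL ASO mice and 111, 115 and 114 CPM in control ASO mice, without overlap and with MLKL ASO above (log2 fold change 0.22, edgeR adjusted p = 0.429). Tmem192, a lysosomal membrane protein, measured 35.6, 30.7 and 20.1 CPM in MLKL ASO mice and 37.8, 43.7 and 39.0 CPM in control ASO mice, with MLKL ASO below and no overlap, most of all through mouse 1607 (log2 fold change -0.48, and -0.27 without it). Slc38a9, an amino acid sensor of the lysosomal membrane, and the pump subunit gene Atp6v0a1 had log2 fold changes of 0.19 and -0.29, with overlap, and Atp6v0a1 one of -0.12 without mouse 1608. Of 18 regulators around mTORC1, AMPK and the transcription factors of this pathway, 12 lay above 0 and 6 below, with a median of 0.070 and 0 at an unadjusted p under 0.05 in edgeR. Foxo3, a transcription factor that also drives autophagy genes, measured 40.3 ± 5.86 CPM in MLKL ASO mice and 32.1 ± 3.18 CPM in control ASO mice, and Flcn, which keeps Tfeb out of the nucleus, 76.2 ± 2.30 CPM in MLKL ASO mice and 90.8 ± 18.4 CPM in control ASO mice (SD, n = 3 each), with overlap in both. The log2 fold change of Flcn was -0.25, and -0.079 without mouse 1608. Rragc, a small GTPase that recruits mTORC1, and the transcription factor gene Foxo1 had log2 fold changes of 0.36 and -0.29 and overlapped as well. Rragc had 0.19 without mouse 1607, and Foxo1 -0.45 without mouse 1608 and -0.13 without mouse 1602.

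**Figure D4:**
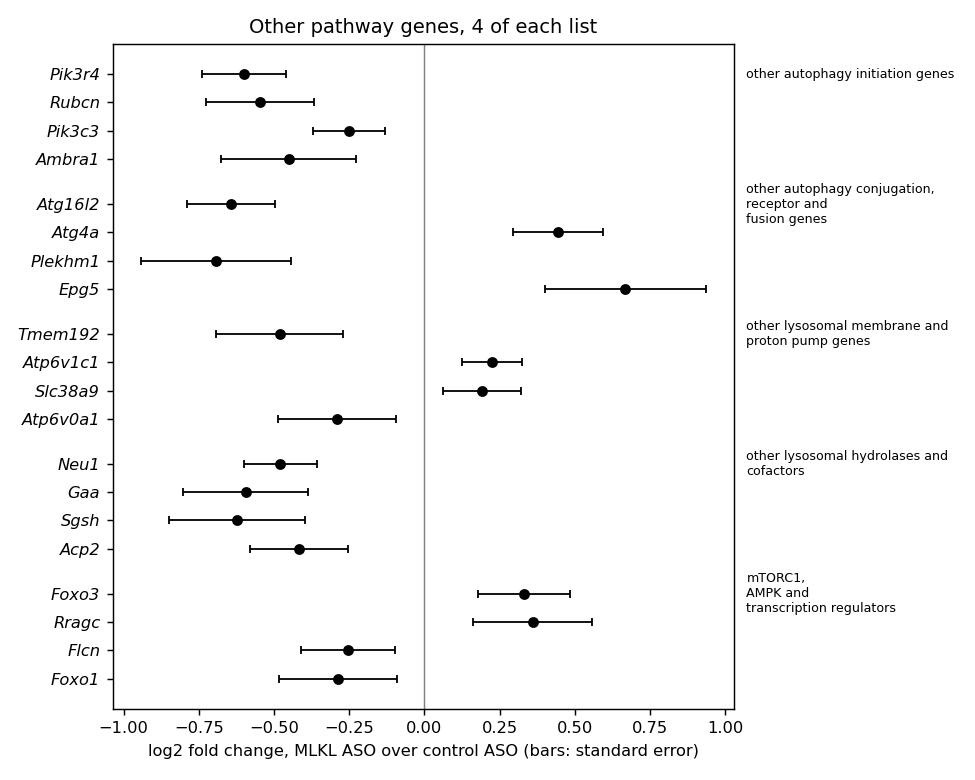
Log2 fold change of MLKL ASO over control ASO (horizontal axis, bars are standard errors from edgeR) for the 4 genes of smallest unadjusted p in each of 5 lists of other pathway genes. Pik3r4, Rubcn, Pik3c3, Atg16l2 and the hydrolase gene Neu1 lie below 0, and Atg4a, Epg5 and Foxo3 above, none of them past the adjusted threshold in edgeR.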

How the data were processed

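Splenic endothelial RNA of 3 MLKL ASO and 3 control ASO mice was analysed from the deposited estimated counts per gene symbol, which are not scaled between libraries. Per the submitters' processing notes, fastp 0.20.1, Salmon 1.3.0 and DESeq2 were used. Genome build and annotation: not given in the sources used here. Salmon divides reads among similar transcripts, so genes with near-identical copies are uncertain, and 69.3% of the values are not whole. Per the labels' protocols, libraries were directional. The authors' deposited DESeq2 table holds, per the file headers, a mean normalised signal, log2 fold changes with standard errors, Wald scores and p-values with adjusted values. Across 19724 genes its log2 fold changes correlated with those computed here at r = 0.978, so its positive values mean higher in MLKL ASO. Its symbols that stand on several rows were left out.

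Counts were rounded to whole numbers. The 4 rows whose name is a number (at most 0.00173% of counts) were left out, and 19741 of 23203 genes passed edgeR's default filter. Groups were compared in R 4.3.3 with edgeR 4.0.16 (TMM, quasi-likelihood, two-sided), with Benjamini-Hochberg adjustment over all genes and a threshold of 0.05. Alternatives were other scalings and filters, robust fitting, limma 3.58.1 (voom), DESeq2 1.42.0 and leaving out each mouse. The members and lists were chosen with earlier results of these data known. Genes named beside the members were those past the threshold and, up to 4 per list, those of smallest unadjusted p. Atg101, Tmem41b, Atg14, Nrbf2 and Ctsk were named outside this rule, after their values were seen.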

Additional observations from a re-analysis of the deposited data

How the results depend on the processing

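Of the 30 genes, 0 passed the adjusted threshold in edgeR under every scaling and filter tried, with robust fitting, in limma-voom with sample weights and without any 1 mouse, while DESeq2 called 1 (Uvrag). Among the 113 further genes the count was likewise 0, and 3 in DESeq2. Over all genes, edgeR called 1 higher and 1 lower, against 5 and 4 on library totals alone, 224 and 291 in DESeq2, 9 and 15 in limma-voom with sample weights, and 0 to 10 higher and 0 to 9 lower without 1 mouse. The count of members lower at an unadjusted p under 0.05 was 5, against 3 on library totals alone, 3 with at least 1 CPM in 3 libraries, 4 with DESeq2 size factors, 6 in DESeq2 and 1 to 5 without 1 mouse. The count higher was 0, against 1 in limma-voom and 0 to 2 without 1 mouse, and the number below 0 was 20, against 12 to 22. Among the further genes, 10 were lower at that level, against 5 to 12. Over all genes it was 1407, against 861 to 1903 in the same fits. The scalings moved the median of all genes by less than 0.1 on the log2 scale. In these fits the cause was not tested.

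Median log2 fold changes moved in limma-voom (members -0.0086, initiation -0.012, membrane and pump genes 0.021, enzymes 0.12) and on leaving out 1 mouse: members -0.17 to 0.033, initiation -0.37 to -0.15, conjugation -0.22 to -0.11, membrane and pump -0.25 to 0.14, regulators -0.012 to 0.11. Genes near 0 changed sign: Gabarap had 0.0025 with DESeq2 size factors, 0.012 on library totals, 0.0026 in DESeq2 and 0.033 in limma-voom. Ctsa had 0.0037, 0.018, 0.0037 and 0.074 in the same fits. In limma-voom Ulk1 had -0.0056, Lamp2 0.021, Ctsb 0.12 and Hexa 0.028. Without 1 mouse, log2 fold changes spanned 0 for Ulk1 (-0.098 to 0.12), Map1lc3a (-0.28 to 0.041), Gabarap (-0.053 to 0.063), Gabarapl1 (-0.34 to 0.018), Gabarapl2 (-0.066 to 0.10), Sqstm1 (-0.23 to 0.12), Lamp2 (-0.25 to 0.16), Ctsa (-0.093 to 0.039), Ctsb (-0.18 to 0.034), Ctsd (-0.056 to 0.33) and Hexa (-0.10 to 0.032). No paired analysis was possible because mouse numbers do not recur between the groups. With 3 mice a group, small differences in single genes are beyond what these libraries can show.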
